A study of Mus musculus with 6 samples.

Results

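Nuclei picked by markers of oligodendrocyte precursors were examined in 6 single-nucleus RNA libraries of mouse cortical lesions. A barcode was taken when it had at least 1000 unique molecular identifiers (UMIs, each standing for 1 captured RNA molecule) and under 5% mitochondrial UMIs. It also needed at least 3 of 6 precursor genes (Pdgfra, Cspg4, Lhfpl3, Tnr, Vcan and Ptprz1) with Lhfpl3 or Tnr among them, and at most 1 of 7 exclusion genes (Bcas1, Enpp6, Mog, Mobp, Ptprc, Csf1r and Col1a2). This rule took 4532 of the 60729 nuclei past the filter, from 67360 barcodes. The rest of the transcriptome went against the label for most of them. When each nucleus was assigned to the class whose profile, over 32253 genes outside the rule, made its counts most likely, 793 of the 4532 (17.5%) had a precursor profile. The whole set is therefore called rule-defined nuclei, and the 793 are called precursor-profile nuclei.

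Oligodendrocyte precursors, also called NG2 glia, are the dividing glial cells from which new oligodendrocytes arise in the adult brain. They carry the PDGF receptor Pdgfra and the proteoglycan Cspg4 (NG2), receive synapses from neurons, and depend on the transcription factors Olig2 and Sox10 for their lineage. After cortical injury they gather and divide around the lesion, and TGFβ, BMP and Wnt signals are known to bear on whether they divide, stay precursors or mature.

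Lesions were made in adult mice by photothrombosis (PT), in which light and a dye close cortical vessels, and tissue was taken on day 7 or day 21 after it, written as days post injury (dpi). Ctrl lesions came from wild-type mice, and ADWA11 lesions from wild-type mice given an antibody against integrin αvβ8, an activator of latent TGFβ, from the day of injury and weekly after it. Tgfbr2-cKO lesions came from mice with the genotype Col1a2(creER); Tgfbr2(flox), in which tamoxifen removes the type II TGFβ receptor from Col1a2-expressing cells, chiefly fibroblasts, so precursors were not the targeted cells. Each of the 6 groups was 1 library from 1 male and 1 female mouse dissected and processed together. No difference below could be tested across mice, all differences are between pairs of libraries, and all intervals are 95% intervals that cover counting error only.

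Libraries differed in make-up before any precursor was counted. Of nuclei past the filter, markers left 4443 of 10856 not assigned to neurons in Tgfbr2-cKO at 7 dpi, and 5348 of 6328 at 21 dpi. In Ctrl these were 7765 of 7906 and 11880 of 12069, and in ADWA11 10869 of 10914 and 12593 of 12656. Among rule-defined nuclei the libraries differed as well. Nuclei with a neuron profile made up 72.4% of the rule-defined nuclei of Tgfbr2-cKO at 7 dpi, against 32.6% at 21 dpi, against at most 4.33% in the other 4 libraries. Nuclei called female numbered 2894, 5321 and 6410 at 7 dpi in Ctrl, ADWA11 and Tgfbr2-cKO, and 6344, 3456 and 2707 at 21 dpi. Those called male numbered 2971, 3348 and 2367 at 7 dpi, and 3247, 7052 and 2451 at 21 dpi. Pooled values thus weigh the male and the female mouse differently between libraries. Pairs of libraries shared 21 to 61 barcode sequences. Over these pairs 4 shared barcodes were rule-defined nuclei and 0 were precursor-profile nuclei. A doublet simulation, with the share called set in advance at 5.76% to 11.4% of a library's barcodes, called 3.42% to 13.8% of rule-defined nuclei. Among precursor-profile nuclei it called 0 to 5.08%, below the share of all barcodes in every library. Rule-defined nuclei were called more often than all barcodes in both Tgfbr2-cKO libraries and in Ctrl at 21 dpi, and less often in the others. Tgfbr2, the targeted gene, reached 382, 297 and 57.9 CPM (UMIs scaled to the usual common total) in the nuclei that the rule did not take at 7 dpi in Ctrl, ADWA11 and Tgfbr2-cKO, and 240.4, 303 and 153 CPM at 21 dpi. CPM here was taken over the summed non-mitochondrial UMIs of the nuclei, and in Tgfbr2-cKO the gene was lower in these nuclei at both times. UMIs were counted per gene, whereas the floxed alleles target an exon, so this level need not measure the deletion. The sum of 7 fibroblast markers in the same nuclei was lower with it, at 3624, 2570 and 122 CPM at 7 dpi, against 4991, 3354 and 359 CPM at 21 dpi, and its part in the Tgfbr2 level was not tested.

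The rule-defined nuclei were a mixture whose main class differed between libraries. Over all 6 libraries, 1459 (32.2%) had a neuron profile, 1287 (28.4%) an astrocyte profile, 842 (18.6%) a fibroblast profile and 104 (2.29%) the profile of committed precursors. Fibroblast profiles led in Ctrl and ADWA11 at 7 dpi (49.2% and 40.8%), neuron profiles in Tgfbr2-cKO at 7 dpi, and astrocyte profiles at 21 dpi (73.8% in Ctrl, 86.1% in ADWA11 and 49.7% in Tgfbr2-cKO). Precursor profiles made up 25.7%, 32.1% and 15.9% at 7 dpi in Ctrl, ADWA11 and Tgfbr2-cKO, and 3.33%, 3.38% and 11.5% at 21 dpi.

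**Figure D1:**
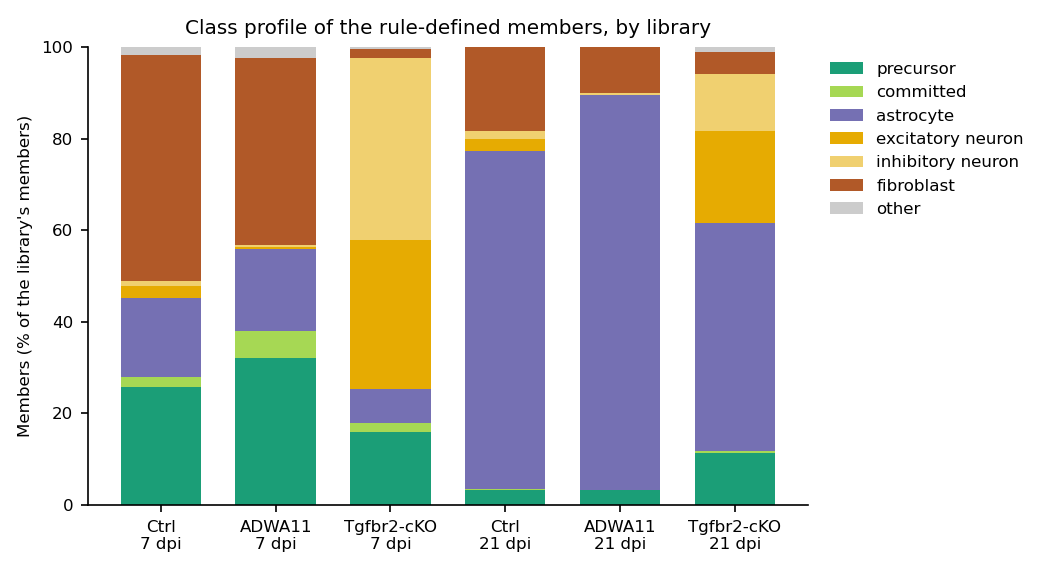
Stacked bars give the percentage of each library's rule-defined nuclei assigned to each class profile, with 1 bar for each of the 6 libraries. Precursor profiles reach at most 32.1% of a bar (ADWA11 at 7 dpi), neurons take 72.4% in Tgfbr2-cKO at 7 dpi and astrocytes 86.1% in ADWA11 at 21 dpi.

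Among rule-defined nuclei, levels of rule genes differed between the classes, and they describe the choice of nuclei. Lhfpl3, a tetraspan protein of precursors, stood at 9540.3 CPM in precursor-profile nuclei of all libraries, 1267 in those with an astrocyte profile and 242 in those with an excitatory neuron profile. Pdgfra was at 468 CPM in precursor profiles, 368 in fibroblast profiles and 27 in astrocyte profiles. Among genes that the rule did not use, Cacng4, an AMPA receptor partner, stood at 479 CPM in precursor profiles against 126 in astrocytes, and Sox10 at 296 CPM against 3.38 in fibroblasts and 67.6 in astrocytes. The differences in these other genes describe how nuclei were assigned, and none was tested.

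The threshold of 3 rule genes lay below most precursors. Of the 2576 nuclei with exactly 3 rule genes, 21 (0.815%) had a precursor profile, against 772 of the 1956 with 4 or more (39.5%). Just outside it, 13 of 4492 nuclei with 2 rule genes, Lhfpl3 or Tnr among them (0.289%), had one. The exclusion threshold cut through precursors, with 666 of 2876 rule-defined nuclei with 1 exclusion gene (23.2%) and 492 of 1805 nuclei just outside with 2 (27.3%) having a precursor profile. From 1 to 2 exclusion genes this share rose in the Ctrl and ADWA11 libraries, from 25.1% to 37.1% in Ctrl at 7 dpi. It fell in both Tgfbr2-cKO libraries, from 33.8% to 12.9% at 7 dpi. Depth mattered less at the edge, where 48 of the 96 rule-defined nuclei just above the UMI limit and 51 of 103 nuclei just below it that met the marker part had a precursor profile.

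Without the marker rule, 1639 nuclei had a precursor profile, and the rule kept 43.1% of them in Ctrl, 40.7% in ADWA11 and 77.6% in Tgfbr2-cKO at 7 dpi, with 18.3%, 30.8% and 55.7% at 21 dpi. Exclusion genes removed most of the others: at 7 dpi 197 of the 203 left out in Ctrl, 408 of 411 in ADWA11 and 59 of 78 in Tgfbr2-cKO, and at 21 dpi 85 of 89, 17 of 18 and 31 of 47. Bcas1, a gene of precursors on the way to myelination, had a UMI in 71.1% to 88.5% of nuclei with a precursor profile, so it alone filled the allowance of 1 gene in most of them. Col1a2, a fibroblast collagen gene, then differed most between libraries: 60.8%, 50.2% and 3.45% of these nuclei had a UMI at 7 dpi in Ctrl, ADWA11 and Tgfbr2-cKO, and 79.8%, 61.5% and 6.60% at 21 dpi. The rule thus removed a larger share of precursor profiles in the 4 libraries rich in fibroblast RNA than in the Tgfbr2-cKO libraries, and shares are given below with and without it.

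Precursor profiles were common at 7 dpi and scarce at 21 dpi. The profile that defines them was built from the 3 libraries at 7 dpi, since those at 21 dpi held only 6, 5 and 13 of the picked nuclei in Ctrl, ADWA11 and Tgfbr2-cKO, under the minimum of 20. As a share of nuclei past the filter, rule-defined nuclei made up 7.58% (7.00 to 8.18) in Ctrl, 8.04% (7.54 to 8.57) in ADWA11 and 15.7% (15.0 to 16.4) in Tgfbr2-cKO at 7 dpi. At 21 dpi they made up 4.97% (4.59 to 5.37), 1.87% (1.64 to 2.12) and 8.14% (7.48 to 8.84). Precursor-profile nuclei numbered 154, 282 and 270 at 7 dpi, against 20, 8 and 59 at 21 dpi, or 1.95% (1.65 to 2.28), 2.58% (2.29 to 2.90) and 2.49% (2.20 to 2.80) of nuclei at 7 dpi, against 0.166% (0.101 to 0.256), 0.0632% (0.0273 to 0.125) and 0.932% (0.710 to 1.20) at 21 dpi. With the rule dropped, precursor profiles made up 4.52%, 6.35% and 3.21% at 7 dpi, against 0.903%, 0.205% and 1.68% at 21 dpi. The order of Ctrl and Tgfbr2-cKO at 7 dpi thus depended on the rule, whereas ADWA11 was lowest and Tgfbr2-cKO highest at 21 dpi both ways.

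**Figure D2:**
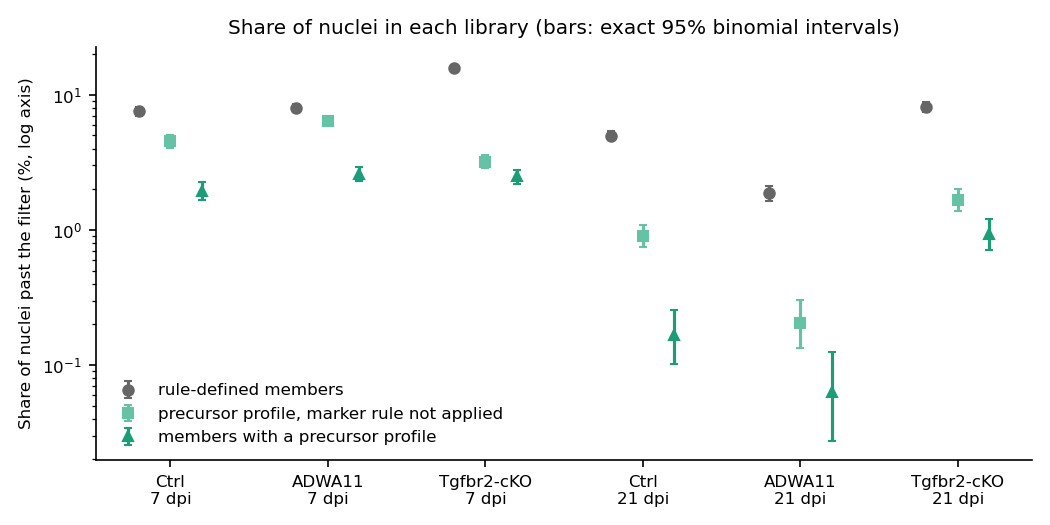
Points give the percentage of nuclei past the filter in each of the 6 libraries, on a log axis, for rule-defined nuclei (members in the legend), for precursor-profile nuclei and for precursor profiles without the rule, with exact 95% binomial intervals. The precursor-profile share lies between 1.95% and 2.58% at 7 dpi and between 0.0632% and 0.932% at 21 dpi.

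From 7 to 21 dpi the precursor-profile share of Ctrl was lower by a log2 ratio of -3.56 (-4.31 to -2.88), -3.52 among female and -3.13 among male nuclei, and -2.33 without the marker rule over nuclei that were not neurons. With a precursor profile built from all 6 libraries, an alternative chosen after seeing the data, it was -3.29 (-3.99 to -2.65), and -2.25 without the rule. At 21 dpi the share in Tgfbr2-cKO exceeded Ctrl by 2.49 (1.74 to 3.30) on the log2 scale, 2.40 in female and 1.91 in male nuclei, and 1.11 (0.71 to 1.51) without the rule among nuclei that were not neurons. ADWA11 at 21 dpi lay below Ctrl by a log2 ratio of -1.39 (-2.78 to -0.15), with -0.39 (-2.24 to 1.22) in female and -2.12 (-4.75 to 0.11) in male nuclei, so the interval of each sex held equality. Over all rule-defined nuclei together with nuclei assigned by markers to committed precursors, oligodendrocytes or astrocytes this ratio turned to 0.27. That denominator holds the rule-defined nuclei with neuron or fibroblast profiles, so it is not one of glia alone. At 7 dpi the log2 ratio of ADWA11 to Ctrl was 0.41 (0.12 to 0.70), 0.42 (-0.01 to 0.87) in female and 0.70 in male nuclei. That of Tgfbr2-cKO to Ctrl at 7 dpi was 0.35 (0.06 to 0.65), with 0.04 in female and 0.89 in male nuclei, and -0.49 without the rule. Because neurons filled much of that library, the same ratio among nuclei that were not neurons was 1.62 (1.32 to 1.91) with the rule and 0.77 (0.55 to 0.99) without it. Over all rule-defined nuclei with the committed, oligodendrocyte and astrocyte classes it was -0.97 at 7 dpi, and that of 21 dpi was 1.16. In Tgfbr2-cKO at 7 dpi this denominator took in the 72.4% of rule-defined nuclei that had a neuron profile. Neuron numbers moved with the Tgfbr2-cKO shares, and their part beyond these denominators was not tested.

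Other stages of the lineage had their own order across libraries. Committed precursors, which have begun to differentiate, made up 1.42%, 2.99% and 1.13% of nuclei at 7 dpi, against 0.588%, 0.0790% and 0.395% at 21 dpi in Ctrl, ADWA11 and Tgfbr2-cKO. By this assignment they were highest in ADWA11 at 7 dpi and lowest in ADWA11 at 21 dpi. The profile of committed precursors was built from ADWA11 and Tgfbr2-cKO at 7 dpi alone, with 50 and 38 picked nuclei. The other libraries held fewer than the minimum of 20. How far the order depends on that choice was not tested. Mature oligodendrocyte profiles counted 49, 76 and 819 nuclei at 7 dpi, against 123, 23 and 644 at 21 dpi, most in both Tgfbr2-cKO libraries, in which neurons were also most frequent.

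Summed over all rule-defined nuclei, gene differences followed the mixture. A gene was called here when its CPM differed at least 2-fold with an interval that left out equality, among genes expected at 5 or more UMIs in both libraries. In Tgfbr2-cKO against Ctrl at 7 dpi, 2643 of 15968 genes (16.6%) were called higher and 3912 (24.5%) lower. Scaling by TMM, which centres most genes, turned that balance to 3706 higher and 2563 lower. At 21 dpi the same comparison gave 1474 of 16621 higher (8.87%) and 2192 lower (13.2%), or 1900 and 1474 with TMM. ADWA11 against Ctrl gave 843 of 16053 higher (5.25%) and 666 lower (4.15%) at 7 dpi, against 411 of 13815 higher (2.98%) and 781 lower (5.65%) at 21 dpi. Ctrl at 21 against 7 dpi gave 2250 of 16315 higher (13.8%) and 1410 lower (8.64%).

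The genes that led these comparisons by a fixed rule were mostly those of the other classes. Col8a1, a basement membrane collagen gene of stromal cells, stood at 1499.5 CPM in Ctrl, 523 in ADWA11 and 17.5 in Tgfbr2-cKO on day 7, then 663, 103 and 21.3 on day 21. It was highest in Ctrl at both times and low in both Tgfbr2-cKO libraries, with a log2 ratio of -6.42 in Tgfbr2-cKO against Ctrl at 7 dpi, and reached only 25 CPM in the precursor-profile nuclei of Ctrl at 7 dpi. The fibroblast genes Col1a1, Col5a2 and Dcn followed the same course in that comparison, with log2 ratios of -6.0, -5.99 and -5.95. Slc35f3 (5.24) and Elmod1 (5.16) were among those higher, at 444 and 287 CPM in the rule-defined nuclei of Tgfbr2-cKO at 7 dpi, against 26.1 and 21.6 CPM in its precursor-profile nuclei. From 7 to 21 dpi in Ctrl the genes that led were C3, a complement component, Lcn2, an iron-binding acute-phase protein, and Mt1, a metallothionein, all known from reactive astrocytes, at log2 ratios of 6.02, 9.19 and 4.84. C3 and Lcn2 had 0 and 1 UMIs in the 20 precursor-profile nuclei of Ctrl at 21 dpi.

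Lists showed the same mixture. Of 26 cell cycle genes, 22 were called lower and 0 higher in the rule-defined nuclei of Tgfbr2-cKO against Ctrl at 7 dpi, and 22 lower in Ctrl at 21 against 7 dpi. In precursor-profile nuclei the first of those counts was 0 in both directions among 25 compared. The summed level of 8 neuron markers in rule-defined nuclei was 1527, 817 and 13214 CPM at 7 dpi, against 3242, 361 and 10681 CPM at 21 dpi in Ctrl, ADWA11 and Tgfbr2-cKO. Comparisons of expression are therefore given below for the 793 precursor-profile nuclei, many with the value in the precursor profiles that the rule left out (outside the rule). The latter came from the same libraries and mice, and most held more than 1 exclusion gene. At 7 dpi Col1a2 had a UMI in 29.9%, 9.57% and 1.11% of precursor-profile nuclei in Ctrl, ADWA11 and Tgfbr2-cKO. With the left-out nuclei included these shares were 60.8%, 50.2% and 3.45%. A like sign outside the rule is thus not independent, and the part of fibroblast RNA in it was not tested.

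Precursor-profile nuclei had a stable core of precursor genes. Of 2339 genes at 50 CPM or more in all 6 libraries, 552 were higher than in the other nuclei of the library in all 6, and 178 of these by over 2-fold. Leaving out the 6 rule genes, they were led by Plpp4, a lipid phosphatase, Car8, a relative of the carbonic anhydrases, Myt1, a zinc finger factor of the lineage, and Cacng4. Kcnh8, a potassium channel, Grin3a, an NMDA receptor subunit, Sema5b, a semaphorin, and the transcription factors Sox10 and Sox6 were also among the first 20. The nuclei were assigned by these same genes, so that order is a description only.

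Markers of other classes were low but present in them, and their sums differed between libraries. The sum of 7 fibroblast markers was 361, 216 and 39.5 CPM at 7 dpi, against 274, 70.9 and 31.5 CPM at 21 dpi in Ctrl, ADWA11 and Tgfbr2-cKO. For 8 neuron markers it was 638, 251 and 1036 CPM at 7 dpi, against 647, 908 and 818 CPM at 21 dpi, with Rbfox3 at 0 in both Ctrl libraries. In ADWA11 at 21 dpi Slc17a7, Gad1, Gad2 and Grin2b were at 0. Meg3 was the largest of the 8, at 389 CPM over all precursor-profile nuclei, and stood at 453 CPM in rule-defined nuclei with an astrocyte profile. For 8 markers of microglia and macrophages the sum was 574, 515 and 329 CPM at 7 dpi, against 221, 113 and 181 CPM at 21 dpi, and for 8 astrocyte markers 834, 502, 464, 388, 369 and 1166 CPM in the same order. Fibroblast markers thus moved in the same direction as genes lower in Tgfbr2-cKO, and neuron markers as genes higher in it, and the level in the other nuclei is given below for some genes only. The part of such RNA in any one result was not tested.

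The depth behind these sums, with mitochondrial UMIs included, was 880896, 2574284 and 1346047 UMIs at 7 dpi, against 132572, 70953 and 541208 UMIs at 21 dpi. One UMI therefore stood for a far larger step at 21 dpi, above all in ADWA11 with 8 nuclei, and differences at 21 dpi are correspondingly loose.

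Most of the listed genes of the precursor lineage were called higher in Tgfbr2-cKO than in Ctrl at 7 dpi. Among precursor-profile nuclei of that comparison, 525 of 10843 genes were called higher (4.84%) and 564 lower (5.2%), with a median log2 ratio of -0.03 over all genes. Of 12 lineage genes that the rule did not use, 8 were called higher and 0 lower, with a median of 1.33. All 8 had the same sign in female and male nuclei and were above the other nuclei of their library, and 7 had the same sign in precursor profiles outside the rule, Lims2 being the exception at -0.49. The exclusion gene Bcas1 had a UMI in 47.4%, 73.4% and 73.0% of precursor-profile nuclei at 7 dpi in Ctrl, ADWA11 and Tgfbr2-cKO. Without the rule these shares were 71.1%, 87.4% and 73.6%. The rule thus kept relatively fewer nuclei with Bcas1 in Ctrl, and the part of this in the lineage genes was not tested.

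Olig1, a basic helix-loop-helix factor of the lineage, stood at 12.5 CPM in Ctrl, 26.9 in ADWA11 and 40.2 in Tgfbr2-cKO on day 7, then 76.1, 128 and 51.8 on day 21. Ctrl at 7 dpi was lowest and the 3 libraries at 21 dpi were highest. Its log2 ratio in Tgfbr2-cKO against Ctrl at 7 dpi was 1.68 (0.73 to 2.77), from 11 and 54 UMIs, but 0.33 outside the rule. Olig2, the related factor on which the lineage depends, showed the same order at 7 dpi with 20.5 CPM in Ctrl, 25.7 in ADWA11 and 57.4 in Tgfbr2-cKO on day 7, then 91.4, 42.6 and 48.1 on day 21. Its log2 ratio was 1.49 (0.73 to 2.31), and 0.43 outside the rule. Sox8, a partner of Sox10, was at 35.3 CPM in Ctrl, 96.6 in ADWA11 and 118 in Tgfbr2-cKO on day 7, then 91.4, 128 and 59.2 on day 21, so Ctrl at 7 dpi was again lowest, and its log2 ratio was 1.74 (1.18 to 2.34), with 0.55 outside the rule. For these 3 factors the direction held in nuclei left out by the rule, but the difference there was under 2-fold. Sox10 itself did not follow them, with 365 CPM in Ctrl, 259 in ADWA11 and 338 in Tgfbr2-cKO on day 7, then 297, 284 and 254 on day 21, a spread of under 2-fold in which Ctrl at 7 dpi was highest.

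**Figure D3:**
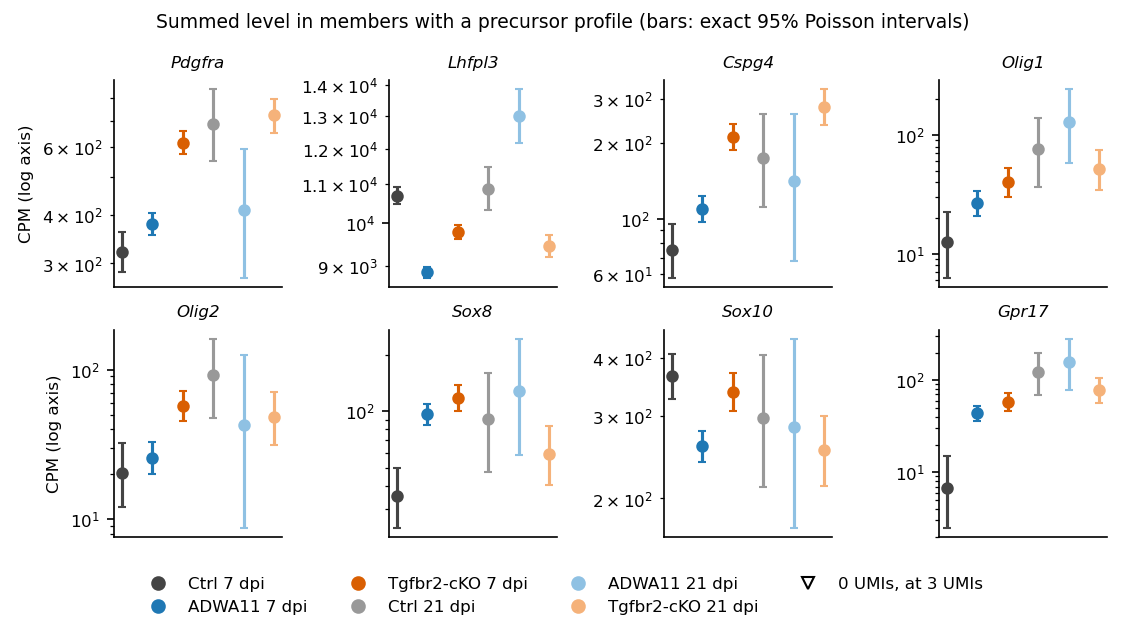
Each panel gives, on a log axis, the summed level in CPM of 1 gene in the precursor-profile nuclei of each of the 6 libraries, with exact 95% Poisson intervals. Olig1, Olig2, Sox8 and Gpr17 are lowest in Ctrl at 7 dpi (12.5, 20.5, 35.3 and 6.83 CPM), whereas Lhfpl3 and Sox10 differ by less than 2-fold between libraries.

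Gpr17, a receptor of precursors that are about to differentiate, had the largest ratio of the list. It stood at 6.83 CPM in Ctrl, 43.6 in ADWA11 and 58.1 in Tgfbr2-cKO on day 7, then 122, 156 and 77.8 on day 21, with only 6 UMIs in Ctrl at 7 dpi, so that Ctrl at 7 dpi lay below the other 5 libraries. The log2 ratio of Tgfbr2-cKO to Ctrl at 7 dpi was 3.09 (1.90 to 4.58), with 3.92 in female nuclei, 2.30 in male nuclei and 1.11 outside the rule. Epn2, an endocytic adaptor abundant in precursors, rested on more UMIs, at 219 CPM in Ctrl, 332 in ADWA11 and 897 in Tgfbr2-cKO on day 7, then 678, 908 and 1109 on day 21. Both Tgfbr2-cKO libraries were high and both 7 dpi libraries of wild-type mice low, and the log2 ratio at 7 dpi was 2.04 (1.82 to 2.26), with 1.61 outside the rule. Megf11, a transmembrane receptor of the EGF-repeat type, had a ratio of 1.33 (1.07 outside the rule) and Xylt1, which starts the glycosaminoglycan chains of proteoglycans, one of 1.07 and 0.61 outside the rule.

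Rule genes are described without comparison to the others, since they chose the nuclei. Pdgfra, the PDGF receptor, was at 322 CPM in Ctrl, 379.6 in ADWA11 and 614 in Tgfbr2-cKO on day 7, then 685, 411 and 722 on day 21, lowest in Ctrl at 7 dpi. Cspg4, the NG2 core protein, was at 75.1 CPM in Ctrl, 109 in ADWA11 and 212 in Tgfbr2-cKO on day 7, then 175, 142 and 279.5 on day 21, lowest in Ctrl at 7 dpi and highest in Tgfbr2-cKO at 21 dpi. Lhfpl3 stayed between 8868 and 12994 CPM and Tnr, a tenascin of perineuronal matrix, between 4842 and 5806 CPM over the 6 libraries.

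Of 11 growth factor receptors compared in Tgfbr2-cKO against Ctrl at 7 dpi, 1 was called higher (Gpr17, also on this list) and 1 lower (Lpar1, a lysophosphatidic acid receptor, from 12 and 6 UMIs), with a median of 0.05. Of 14 commitment and myelin genes compared, 2 were called higher (Tmem163, and Gpr17 as counted above) and 1 lower, with a median of 0.57. This list holds the exclusion genes Bcas1, Mog and Mobp, which the rule limited. Its counts and medians here and below thus partly describe the choice of nuclei. The gene lower was Cldn11, a myelin tight junction protein, which did not have the same sign outside the rule. Tmem163, a zinc transporter of committed precursors, was one of those higher, at 80.8 CPM in Ctrl, 14.8 in ADWA11 and 204 in Tgfbr2-cKO on day 7, then 175, 14.2 and 159 on day 21, lowest in ADWA11 at both times. Its log2 ratio was 1.34 (0.96 to 1.74) in Tgfbr2-cKO and -2.45 (-3.06 to -1.86) in ADWA11 against Ctrl at 7 dpi. The first of these did not have the same sign in both sexes. Mbp, which encodes a main myelin protein, had a ratio of -0.30 in Tgfbr2-cKO at 7 dpi and was not called.

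Some genes of the TGFβ and BMP pathways were called lower in Tgfbr2-cKO than in Ctrl at 7 dpi, where the deletion was aimed at other cells. Of 18 TGFβ pathway genes compared, 4 were called lower and 1 higher, with a median of -0.31. Smad7, an inhibitor that TGFβ and BMP signals induce, was at 100.1 CPM in Ctrl, 31.2 in ADWA11 and 20.9 in Tgfbr2-cKO on day 7, then 22.8, 14.2 and 42.6 on day 21. Ctrl at 7 dpi stood above the other 5 libraries, and the log2 ratio was -2.26 (-2.93 to -1.63), with -2.03 in female and -3.14 in male nuclei. In precursor profiles outside the rule, however, it was 0.14, so this difference was not seen in the nuclei that the rule left out. Smad6, the other inhibitory Smad, was at 47.8 CPM in Ctrl, 12.9 in ADWA11 and 6.71 in Tgfbr2-cKO on day 7, then 76.1, 0 and 7.40 on day 21, with a ratio of -2.83 (-4.06 to -1.77) and -0.10 outside the rule. Tgfb2, a TGFβ ligand, had a ratio of -1.45 (-1.94 to -0.97) and -0.25 outside.

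Tgfbr2 in the precursor-profile nuclei was low throughout, at 36.4 CPM in Ctrl, 14.8 in ADWA11 and 6.71 in Tgfbr2-cKO on day 7, then 15.2, 0 and 3.70 on day 21. It was below its level in the other nuclei of each library, and its log2 ratio of -2.44 (-3.69 to -1.34) at 7 dpi rested on 32 and 9 UMIs. In precursor profiles outside the rule that ratio was -0.41. Tgfbr2 was therefore not measured well enough in precursors to say whether the deletion reached them. The paper's floxed alleles target an exon, whereas UMIs were counted per gene, so the level need not show the deletion either. Ltbp1, which holds latent TGFβ in the matrix, went the other way and was the 1 gene called higher, with 58.0 CPM in Ctrl, 16.0 in ADWA11 and 142 in Tgfbr2-cKO on day 7, then 38.1, 99.3 and 237 on day 21 and a log2 ratio of 1.29 (0.83 to 1.76) and 1.66 outside the rule.

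**Figure D4:**
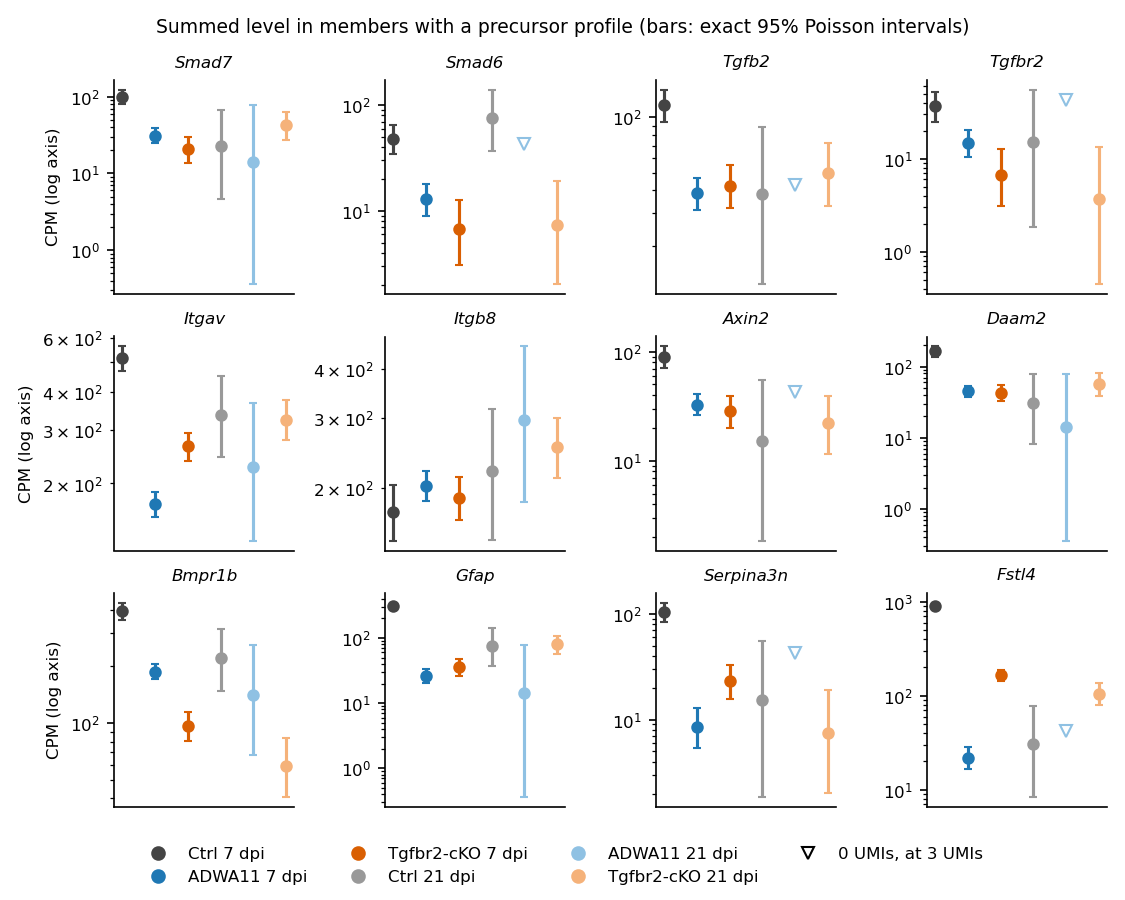
Each panel gives, on a log axis, the summed level in CPM of 1 pathway or injury gene in the precursor-profile nuclei of each library, with exact 95% Poisson intervals and open triangles at the level of 3 UMIs where there were 0. Smad7, Smad6, Gfap, Serpina3n, Axin2, Daam2 and Fstl4 stand at 100.1, 47.8, 308, 104, 89.9, 164 and 913 CPM in Ctrl at 7 dpi, above ADWA11 and Tgfbr2-cKO at 7 dpi in each case.

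Bmpr1b was the BMP receptor with a 2-fold difference outside the rule as well. Of 13 BMP and Id genes compared at 7 dpi, 4 were called lower in Tgfbr2-cKO and 0 higher, with a median of -0.97, and all 4 had the same sign in both sexes and outside the rule. Bmpr1b, a type I BMP receptor, was at 391 CPM in Ctrl, 187 in ADWA11 and 96.2 in Tgfbr2-cKO on day 7, then 221, 142 and 59.2 on day 21, highest in Ctrl at 7 dpi and lowest in both Tgfbr2-cKO libraries. The log2 ratio was -2.03 (-2.33 to -1.73) at 7 dpi, with -1.71 outside the rule, and -1.90 (-2.67 to -1.12) at 21 dpi. Bmpr1a, the related receptor, was at 489 CPM in Ctrl, 299 in ADWA11 and 202 in Tgfbr2-cKO on day 7, then 206, 85.1 and 157 on day 21, and its ratio at 7 dpi was -1.28 (-1.5 to -1.05), with -0.57 outside. Id1 and Id2, inhibitors of basic helix-loop-helix factors that BMP signals induce, had ratios of -1.44 and -1.36, from 16 and 47 UMIs in Ctrl and 9 and 28 in Tgfbr2-cKO.

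Wnt feedback genes showed a like pattern. Of 9 compared, 3 were called lower and 0 higher, with a median of -0.83. Axin2, a target and inhibitor of Wnt signalling in precursors, was at 89.9 CPM in Ctrl, 32.7 in ADWA11 and 28.3 in Tgfbr2-cKO on day 7, then 15.2, 0 and 22.2 on day 21, highest in Ctrl at 7 dpi, and its log2 ratio was -1.67 (-2.26 to -1.09), with -1.57 outside the rule. Daam2, an effector of Wnt signals that holds back precursor differentiation, was at 164 CPM in Ctrl, 44.8 in ADWA11 and 43.2 in Tgfbr2-cKO on day 7, then 30.5, 14.2 and 57.4 on day 21. Its ratio was -1.92 (-2.39 to -1.47) with the rule and -0.49 outside it. Notch genes were called in both directions, 2 higher (Dll1 and Hes5) and 1 lower (Notch3) of 9, with a median of -0.03, and Dll1 and Notch3 did not have the same sign in both sexes.

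Of 17 injury response genes compared in Tgfbr2-cKO against Ctrl at 7 dpi, 7 were called lower and 0 higher, with a median of -0.99. Only 3 of the 7 were at or above the level of the other nuclei of Ctrl (Serpina3n, Gfap and S100a10), and the others were Vim, Cd44, Osmr and Hmox1. Gfap, the intermediate filament of reactive astrocytes, was at 308 CPM in Ctrl, 26.5 in ADWA11 and 35.8 in Tgfbr2-cKO on day 7, then 76.1, 14.2 and 79.6 on day 21, with Ctrl at 7 dpi far above the rest. The other nuclei of that library held 19.8 CPM, whereas rule-defined nuclei with an astrocyte profile held 645 to 933 CPM across the libraries. Gfap is itself among the 8 astrocyte markers, whose sum in precursor-profile nuclei was 834, 502 and 464 CPM at 7 dpi in Ctrl, ADWA11 and Tgfbr2-cKO. That sum is thus not a separate measure, and the part of astrocyte RNA in the Gfap difference was not tested. The log2 ratio was -3.11 (-3.58 to -2.66), with -5.43 outside the rule. Serpina3n, a secreted protease inhibitor of reactive glia, was at 104 CPM in Ctrl, 8.57 in ADWA11 and 23.1 in Tgfbr2-cKO on day 7, then 15.2, 0 and 7.40 on day 21, with a ratio of -2.16 (-2.80 to -1.56) and -2.33 outside the rule.

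Interferon and antigen presentation genes went the other way, with 6 of 15 called higher, 0 lower and a median of 0.61. Ifih1, a sensor of double-stranded RNA, had 2 UMIs in Ctrl and 34 in Tgfbr2-cKO at 7 dpi. Ifit1, an interferon-induced inhibitor of translation, had 0 and 23 UMIs, which puts its log2 ratio at 2.33 or more against a floor of 3 UMIs. H2-D1, a class I histocompatibility gene, Tap1, a peptide transporter, and Nlrc5, an activator of class I genes, were also among those higher, but Tap1 did not have the same sign in both sexes and Nlrc5 was below the level of the other nuclei.

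Matrix genes were called in both directions. Of 17 proteoglycan and tenascin genes compared, 3 were called higher (Xylt1, Smoc1 and the rule gene Cspg4, which is a description) and 3 lower (Acan, Tnc and Sulf1), with a median of 0.48. The list also holds the rule genes Vcan and Ptprz1, so its medians here and below are partly a description. Tnc, the tenascin of early glia and of scars, was at 258 CPM in Ctrl, 147 in ADWA11 and 62.6 in Tgfbr2-cKO on day 7, then 68.5, 0 and 1.85 on day 21, with a ratio of -2.04 (-2.42 to -1.68) and -1.22 outside the rule. Of 23 glutamate and potassium channel genes 4 were called higher and 0 lower, with a median of 0.38. Kcnd2, an A-type potassium channel, was the 1 of the 4 above the level of other nuclei, at 1788 CPM in Ctrl, 2287 in ADWA11 and 3708 in Tgfbr2-cKO on day 7, then 3829.8, 2795 and 4361 on day 21, lowest in Ctrl at 7 dpi, with a ratio of 1.05 (0.97 to 1.14) and 0.70 outside the rule. The other 3, Grin1, Grin2a and Grm7, were below the level of the other nuclei of Tgfbr2-cKO, most of which were neurons. Sema5a, a guidance protein of the semaphorin family, was the 1 of 26 adhesion and guidance genes called higher, against 3 lower, with a median of -0.01. It stood at 78.5 CPM in Ctrl, 208 in ADWA11 and 314 in Tgfbr2-cKO on day 7, then 381, 468 and 452 on day 21, with a ratio of 2.0 (1.63 to 2.39) and 1.07 outside the rule.

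Outside the lists, genes called in precursor-profile nuclei were ranked when they had the same sign in both sexes, a 2-fold difference outside the rule and a level at or above that of the other nuclei of the higher library, criteria set after the values had been seen. For Tgfbr2-cKO against Ctrl at 7 dpi 101 genes were lower by those criteria and 67 higher. Col4a5 and Col4a6, neighbouring genes for basement membrane collagen chains, were among those lower. Col4a6 was at 377 CPM in Ctrl, 131 in ADWA11 and 35.0 in Tgfbr2-cKO on day 7, then 145, 340.5 and 25.9 on day 21, low in both Tgfbr2-cKO libraries and highest in Ctrl at 7 dpi, with a log2 ratio of -3.43 (-3.90 to -2.98) and -3.49 outside the rule. Col4a5 had a ratio of -2.95. Glis3, a zinc finger factor, was at 1953 CPM in Ctrl, 549.8 in ADWA11 and 319 in Tgfbr2-cKO on day 7, then 815, 142 and 239 on day 21, with Ctrl highest at each time, and its ratio was -2.61 (-2.77 to -2.46), with -2.60 in female and -2.62 in male nuclei. Ptprr, a receptor tyrosine phosphatase, was among those higher, at 17.1 CPM in Ctrl, 46.0 in ADWA11 and 125 in Tgfbr2-cKO on day 7, then 99.0, 85.1 and 241 on day 21, with a ratio of 2.87 (2.11 to 3.74).

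Cell cycle genes set ADWA11 apart at 7 dpi. In ADWA11 against Ctrl at 7 dpi, 451 of 10738 genes were called higher (4.2%) and 591 lower (5.5%) in precursor-profile nuclei, with a median of -0.01. Of 26 cell cycle genes, 14 were called higher and 0 lower, with a median of 1.11, and the 14 had the same sign in both sexes and outside the rule. Top2a, a topoisomerase of dividing cells, was at 196 CPM in Ctrl, 405 in ADWA11 and 180.4 in Tgfbr2-cKO on day 7, then 221, 0 and 5.55 on day 21. ADWA11 at 7 dpi was highest, and the log2 ratio was 1.05 (0.82 to 1.29), with 0.49 outside the rule. Cenpf, a kinetochore protein, was at 45.5 CPM in Ctrl, 132 in ADWA11 and 44.0 in Tgfbr2-cKO on day 7, then 137, 0 and 5.55 on day 21, with a ratio of 1.53 (1.06 to 2.04), and Tpx2, a spindle assembly factor, at 52.3 CPM in Ctrl, 176 in ADWA11 and 56.6 in Tgfbr2-cKO on day 7, then 68.5, 0 and 11.1 on day 21, with a ratio of 1.75 (1.31 to 2.22). For both, ADWA11 at 7 dpi was at least 2-fold above Ctrl and Tgfbr2-cKO at 7 dpi. Mki67, the most used marker of dividing cells, had a smaller ratio of 0.74 (0.47 to 1.02) and was not called.

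By the share of nuclei with cycle genes, ADWA11 was likewise highest at 7 dpi. After each nucleus was thinned to 2000 UMIs, 46.6% (40.4 to 52.8) of 262 precursor-profile nuclei of ADWA11 at 7 dpi had UMIs of at least 2 of the 26 genes. In Ctrl at 7 dpi the share was 32.3% (24.4 to 41.1) of 130 nuclei and in Tgfbr2-cKO 29.0% (23.3 to 35.2) of 238. At 21 dpi it was 31.6% (12.6 to 56.6) of 19 nuclei in Ctrl, 25% (3.19 to 65.1) of 8 in ADWA11 and 12.3% (5.08 to 23.7) of 57 in Tgfbr2-cKO. Nuclei with under 2000 UMIs were left out, 24, 20 and 32 at 7 dpi, against 1, 0 and 2 at 21 dpi. Without thinning the shares were 50%, 70.9% and 41.1% at 7 dpi, against 45%, 50% and 44.1% at 21 dpi.

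Neurons, which do not divide, set the background of that measure. Thinned in the same way, 10.5%, 11.8% and 4.23% of nuclei ruled neurons passed it at 7 dpi, against 7.28%, 16.4% and 6.62% at 21 dpi, at median depths of 8342 to 23888.5 UMIs against 4577.5 to 9191.5 in precursor-profile nuclei. Every precursor-profile share at 7 dpi was above the neuron share of its library, whereas at 21 dpi the intervals in ADWA11 and Tgfbr2-cKO held it. Rule-defined nuclei without a precursor profile gave 18.9%, 22.5% and 5.23% at 7 dpi, against 8.46%, 5.33% and 9.35% at 21 dpi. They were above the neurons of each library at 7 dpi, and ADWA11 was highest among them at 7 dpi too. Precursor profiles without the rule gave 30.6%, 41.4% and 30.7% at 7 dpi, against 34.0%, 19.2% and 27.7% at 21 dpi, so ADWA11 was highest at 7 dpi both ways and the low value of Tgfbr2-cKO at 21 dpi was not seen without the rule.

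**Figure D5:**
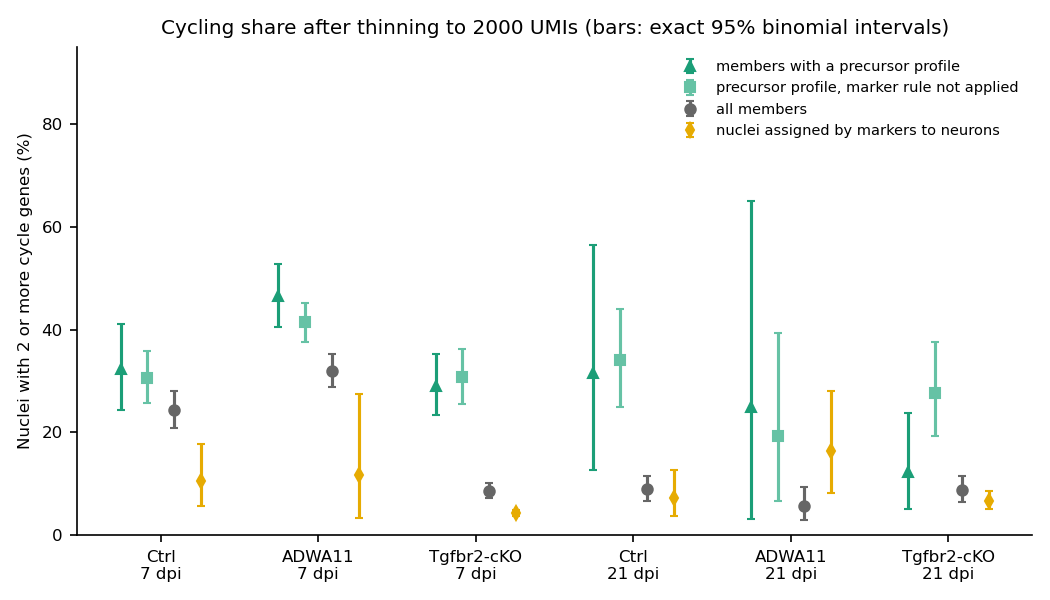
Points give, for each of the 6 libraries, the percentage of nuclei with UMIs of at least 2 of 26 cell cycle genes after thinning to 2000 UMIs, with exact 95% binomial intervals, for rule-defined nuclei (members in the legend), precursor-profile nuclei, precursor profiles without the rule and neurons. Precursor-profile nuclei of ADWA11 at 7 dpi are highest at 46.6%, and neurons stay at or below 16.4%.

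For lineage genes, ADWA11 at 7 dpi was measured against the same Ctrl library as Tgfbr2-cKO, so the 2 comparisons are not independent. Of 12, 3 were called higher and 0 lower, with a median of 0.56. The uneven loss of nuclei with Bcas1 applies here too, with a UMI in 73.4% of precursor-profile nuclei against 47.4% in Ctrl. Olig1, Sox8 and Gpr17 had log2 ratios of 1.10 (0.17 to 2.17), 1.45 (0.91 to 2.04) and 2.68 (1.51 to 4.15), and outside the rule of 0.22, 0.84 and 1.34. In nuclei taken by a stricter marker rule Ctrl held 0 UMIs of Gpr17, which puts its ratio only at -1.43 or more. Of 11 growth factor receptors Gpr17 was called higher and Erbb3, a neuregulin receptor, lower, the latter without the same sign in both sexes, with a median of 0.24. Commitment and myelin genes had 1 higher and 2 lower of 12, Tmem163 among the latter, and a median of -0.23.

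Some TGFβ pathway genes were called lower in ADWA11 than in Ctrl at 7 dpi, and here Smad7 and Smad6 kept a 2-fold difference outside the rule. Of 18 compared, 7 were called lower and 0 higher, with a median of -0.53. Smad7 had a log2 ratio of -1.68 (-2.14 to -1.23), with -1.73 in female nuclei, -1.60 in male nuclei and -1.43 outside the rule. Smad6 had one of -1.89 (-2.60 to -1.20), with -1.21 outside, and Tgfb2 one of -1.59 (-2.0 to -1.18), with -1.16 outside. These 3 were at or above the level of the other nuclei of Ctrl, and Itgav, Itgb5, Tgfbr2 and Ltbp1 were below it.

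Subunits of the antibody's target differed from each other. Itgb8, the β8 chain, was at 174 CPM in Ctrl, 203 in ADWA11 and 189 in Tgfbr2-cKO on day 7, then 221, 298 and 254 on day 21, a spread of under 2-fold in which no comparison was called. Itgav, the αv chain, was at 514 CPM in Ctrl, 171 in ADWA11 and 265 in Tgfbr2-cKO on day 7, then 335, 227 and 324 on day 21, with Ctrl at 7 dpi highest and ADWA11 at 7 dpi lowest. Its log2 ratio in ADWA11 against Ctrl at 7 dpi was -1.59 (-1.78 to -1.40), with -1.09 outside the rule. In the other nuclei of Ctrl at 7 dpi Itgav stood at 566 CPM, above the precursor-profile nuclei. RNA of the 2 chains does not measure their blockade by the antibody.

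Injury genes had the most called lower of any list in ADWA11 at 7 dpi, with 8 of 18 called lower, 1 higher and a median of -0.98. The 8 had the same sign in both sexes and outside the rule, and 6 of them (Serpina3n, C4b, Gfap, Stat3, S100a10 and Gap43) were at or above the level of other nuclei in Ctrl. Gfap had a log2 ratio of -3.54 (-3.95 to -3.15) and -3.54 outside the rule, and Serpina3n one of -3.59 (-4.34 to -2.91) and -4.02 outside. C4b, a complement component made by glia, was at 287 CPM in Ctrl, 56.9 in ADWA11 and 159.5 in Tgfbr2-cKO on day 7, then 145, 156 and 131 on day 21, lowest in ADWA11 at 7 dpi, with a ratio of -2.33 (-2.64 to -2.03) and -2.24 outside the rule. Stat3, a transducer of cytokine signals in reactive glia, had a ratio of -1.19 (-1.40 to -0.99) and -0.67 outside the rule. The 1 gene called higher, Nes, did not have the same sign in both sexes.

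Other lists in ADWA11 at 7 dpi were smaller. Wnt feedback genes had 3 lower and 0 higher of 8, with a median of -0.83, and Axin2 and Daam2 had log2 ratios of -1.46 and -1.87. BMP and Id genes had 2 lower (Bmp7 and Bmpr1b) and 0 higher of 13, with a median of -0.32. Notch genes had 2 lower and 0 higher of 6, interferon genes 2 lower and 0 higher of 13, and proteoglycan genes 2 lower and 0 higher of 16, with medians of -0.38, 0.15 and -0.26. Adhesion and guidance genes had 2 higher and 5 lower of 25, with a median of 0.17. Sema5a was among those higher, at 1.41 (1.04 to 1.79), and Plxna4, a semaphorin receptor, and Sema3e among those lower, at -1.46 (-1.73 to -1.20) and -1.60 (-1.98 to -1.21). Of 20 channel genes 1 was called lower, Gria1, an AMPA receptor subunit, with -1.07 outside the rule beside -1.05, and 0 higher, with a median of -0.08.

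Fstl4, a secreted follistatin-like protein, had the largest difference of ADWA11 against Ctrl at 7 dpi among 125 genes that were lower by the criteria set after the values had been seen. It stood at 913 CPM in Ctrl, 21.8 in ADWA11 and 165 in Tgfbr2-cKO on day 7, then 30.5, 0 and 106 on day 21. Ctrl at 7 dpi was far above the other 5 libraries, and the precursor-profile level there exceeded the 57.3 CPM of the other nuclei. The log2 ratio was -5.39 (-5.80 to -4.99), with -5.27 in female nuclei, -5.96 in male nuclei and -4.11 outside the rule. Cdh8, a classical cadherin, and Col20a1, a collagen gene known from this lineage, were among the others. Cdh8 was at 213 CPM in Ctrl, 12.1 in ADWA11 and 33.5 in Tgfbr2-cKO on day 7, then 15.2, 0 and 0 on day 21 and had a ratio of -4.14 (-4.74 to -3.58), and Col20a1 was at 274 CPM in Ctrl, 32.0 in ADWA11 and 101 in Tgfbr2-cKO on day 7, then 83.8, 156 and 55.5 on day 21 and had one of -3.10 (-3.48 to -2.73). For both genes Ctrl at 7 dpi was highest. The 50 genes that were higher by those criteria included Cep55, Cks2 and Depdc1a, which act in cell division, with ratios of 2.56, 3.02 and 2.25.

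At 21 dpi precursor-profile nuclei of Tgfbr2-cKO numbered 59 against 20 in Ctrl. Of 4419 genes compared, 281 were called higher (6.36%) and 246 lower (5.57%), with a median of 0.03, and TMM would raise each ratio by 0.21. None of 11 lineage genes was called in either direction, with a median of -0.23, and Olig2 had a log2 ratio of -0.92 (-1.96 to 0.20). Gpc5, a glypican, had the largest ratio of its list, at 815 CPM in Ctrl, 446 in ADWA11 and 1589 in Tgfbr2-cKO on day 7, then 472, 979 and 3216 on day 21. Both Tgfbr2-cKO libraries were high, the ratio at 21 dpi was 2.77 (2.40 to 3.16), with 3.6 in female, 2.94 in male nuclei and 1.76 outside the rule, and astrocyte markers were also highest in that library, at 1166 CPM in sum. Bcan, the brevican proteoglycan, was the other of 14 proteoglycan genes called higher, with 0 lower and a median of 0.23. It stood at 129 CPM in Ctrl, 107 in ADWA11 and 215 in Tgfbr2-cKO on day 7, then 129, 99.3 and 372 on day 21, with a ratio of 1.52 (0.81 to 2.33) and 0.65 outside the rule.

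Ltbp1 was higher in Tgfbr2-cKO at 21 dpi as well, with a log2 ratio of 2.64 (1.38 to 4.29) and 1.45 outside the rule, and was the 1 TGFβ pathway gene of 10 called higher, against 1 lower, with a median of 0.26. Gap43, a growth-associated protein of axons and of early glia, was the 1 of 7 injury genes called lower, with 0 higher and a median of -0.14. It was at 254 CPM in Ctrl, 115 in ADWA11 and 137 in Tgfbr2-cKO on day 7, then 244, 298 and 68.5 on day 21, lowest in Tgfbr2-cKO at 21 dpi, with a ratio of -1.83 (-2.55 to -1.10) and -1.53 outside the rule. Lypd6, a modulator of nicotinic receptors, and Ldlrad3, of the low-density lipoprotein receptor family, were among 11 genes lower by the criteria set afterwards. Lypd6 was at 781 CPM in Ctrl, 892 in ADWA11 and 572 in Tgfbr2-cKO on day 7, then 259, 85.1 and 72.2 on day 21, with a ratio of -1.84 (-2.54 to -1.13), and Ldlrad3 at 595 CPM in Ctrl, 734 in ADWA11 and 400.3 in Tgfbr2-cKO on day 7, then 411, 128 and 98.1 on day 21, with a ratio of -2.07 (-2.64 to -1.49). For both, the 3 libraries at 7 dpi and Ctrl at 21 dpi were above ADWA11 and Tgfbr2-cKO at 21 dpi. By the same criteria 17 genes were higher.

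The remaining lists of that comparison were small. BMP genes had 1 lower (Bmpr1b) of 7, with a median of -0.40, cell cycle genes 2 lower (Smc4, and Top2a without the same sign outside the rule) of 4, with -1.59, and receptors 1 higher (Erbb3) of 9, with -0.18, which did not have the same sign in both sexes. Commitment genes had 1 higher of 10 (median -0.03), channel genes 2 higher of 19 (0.36), adhesion genes 1 higher and 2 lower of 20 (-0.10), interferon genes 1 higher of 2 (1.74) and Notch and Wnt genes none of 2 and 5 (0.39 and 0.28).

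ADWA11 at 21 dpi held 8 precursor-profile nuclei, 5 female and 3 male, and little could be compared. Of 2733 genes, 114 were called higher (4.17%) and 157 lower (5.74%), with a median of -0.01, and TMM would lower each ratio by 0.16. None of 11 lineage genes, 6 receptors, 6 TGFβ genes or 3 injury genes was called, with medians of 0.36, 0.03, -0.50 and 0.11. Cell cycle genes had 5 of 8 lower and 0 higher, 3 of the 5 not with the same sign in both sexes, with Top2a at 0 and 29 UMIs in ADWA11 and Ctrl. Gpc5 was the 1 of 14 proteoglycan genes called higher, with a ratio of 1.05 (0.54 to 1.57), 0 were lower, and the median was 0.20. The counts of the other lists were 1 lower of 8 commitment genes (0.11), 1 lower of 5 BMP genes (-0.64), 2 higher of 16 channel genes (-0.10), 1 higher and 1 lower of 18 adhesion genes (0.11), and none of 4 Wnt (-0.29) and 2 Notch genes (0.11), with each median in parentheses. No interferon gene passed the filter on low counts.

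In Ctrl at 21 against 7 dpi, some lineage genes were called higher and some Wnt and injury genes lower in precursor-profile nuclei. Of 4672 genes compared, 193 were called higher (4.13%) and 355 lower (7.6%), with a median of -0.12, and TMM would lower each ratio by 0.13, on 154 nuclei at 7 dpi, against 20 at 21 dpi. Lineage genes had 4 higher and 0 lower of 8, with a median of 0.90, and the 4 (Sox8, Megf11, Cspg5 and Epn2) had the same sign in both sexes and outside the rule. Cspg5, a brain chondroitin sulfate proteoglycan, was at 127 CPM in Ctrl, 108 in ADWA11 and 245 in Tgfbr2-cKO on day 7, then 282, 553 and 411 on day 21, higher in each 21 dpi library than in Ctrl and ADWA11 at 7 dpi, with a log2 ratio of 1.14 (0.57 to 1.69) and 0.71 outside the rule. Epn2 had one of 1.63 (1.25 to 2.0) and Megf11 one of 1.09 (0.60 to 1.56). Erbb4, a neuregulin receptor, was at 1928 CPM in Ctrl, 3776 in ADWA11 and 2689 in Tgfbr2-cKO on day 7, then 4721, 5277 and 4015 on day 21, again high in the 3 libraries at 21 dpi and lowest in Ctrl at 7 dpi. Its ratio was 1.29 (1.16 to 1.43), with 1.52 in female, 0.11 in male nuclei and 1.48 outside the rule. Together with Pdgfra, a rule gene whose value is a description, it made 2 of 6 receptors called higher, with 0 lower and a median of 0.57.

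Pcdh15, a protocadherin abundant in precursors, was among 15 genes that were higher by the criteria set afterwards. It stood at 759 CPM in Ctrl, 1343 in ADWA11 and 2446 in Tgfbr2-cKO on day 7, then 2429, 2837 and 3959.8 on day 21, lowest in Ctrl at 7 dpi and highest in Tgfbr2-cKO at 21 dpi, with a ratio of 1.68 (1.48 to 1.87) and 1.24 outside the rule. Sema5a was also higher, at 2.28 (1.72 to 2.82), with 1.17 outside. By those criteria 49 genes were lower, among them Fstl4 at -4.91 (-6.78 to -3.54), Cdh8 at -3.80 (-6.86 to -1.93) and Hpgd, which inactivates prostaglandins, at -2.67 (-4.31 to -1.43). Hpgd stood at 242 CPM in Ctrl, 54.9 in ADWA11 and 63.4 in Tgfbr2-cKO on day 7, then 38.1, 0 and 1.85 on day 21, so that Ctrl at 7 dpi was again above the other 5 libraries.

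Wnt feedback genes had 4 lower and 0 higher of 7, with a median of -1.20. Axin2, whose sign differed between the sexes, and Daam2 had log2 ratios of -2.56 (-5.63 to -0.66) and -2.43 (-4.32 to -1.04), and Nkd1, an inhibitor of the pathway, was at 83.1 CPM in Ctrl, 41.7 in ADWA11 and 39.5 in Tgfbr2-cKO on day 7, then 7.61, 0 and 20.4 on day 21, with 1 UMI in Ctrl at 21 dpi. TGFβ pathway genes had 3 lower (Tgfb2, Smad4 and Smad7) and 0 higher of 12, with a median of -0.14, and Smad7 had a ratio of -2.13 (-4.44 to -0.54), from 88 and 3 UMIs. Injury genes had 3 lower (Serpina3n, Gfap and Stat3) and 0 higher of 10, with a median of -0.58, and Gfap had a ratio of -2.02 (-3.09 to -1.12). BMP genes had 2 lower of 6 (-0.75), Notch genes 1 of 4 (-1.20) and interferon genes 0 of 2 (-1.24), with none higher and the median in parentheses.

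The other lists of that comparison had called genes in both directions. Proteoglycan genes had 3 higher, the rule gene Cspg4 among them, and 2 lower of 15 (0.01), channel genes 2 and 2 of 19 (0.21), adhesion genes 1 and 1 of 21 (0.14), commitment genes 1 and 1 of 10 (-0.10), and cell cycle genes 2 and 1 of 15 (0.16). Mki67, the 1 cycle gene lower, was at 150.2 CPM in Ctrl, 251 in ADWA11 and 119 in Tgfbr2-cKO on day 7, then 60.9, 0 and 11.1 on day 21, and Cenpf and Ect2, those higher, did not have the same sign in both sexes.

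Metabolic lists had called shares near those of all genes, or counts too small to read. Of 19 cholesterol and lipid genes in Tgfbr2-cKO against Ctrl at 7 dpi 1 was called higher and 1 lower (median 0.06), and in ADWA11 1 and 1 of 17 (-0.35). Of 10 hypoxia and glycolysis genes, 1 was called higher in Tgfbr2-cKO (0.19) and 0 in ADWA11 (0.20) at 7 dpi, and 0 were lower in either. The gene was Vegfa, a vascular growth factor made by precursors. Immediate early genes had 1 higher (Jund) and 1 lower (Fos) of 5 in Tgfbr2-cKO (-0.43), and 0 higher and 2 lower (Fos and Jun) of 7 in ADWA11 (0.45), larger shares than among all genes but over few genes. At 21 dpi these 3 lists had at most 5 genes compared in any comparison, of which Apoe was lower in ADWA11, Vegfa higher in Tgfbr2-cKO, without the same sign outside the rule, and Fos lower in Ctrl against 7 dpi, without the same sign in both sexes.

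Ctrl at 7 dpi is the base of 3 of the 5 comparisons, so a gene at an extreme in that library can enter all 3. Among the genes described, Olig1, Sox8, Gpr17, Sema5a, Epn2 and Pcdh15 were lowest there and Smad7, Axin2, Daam2, Gfap, Fstl4, Cdh8 and Hpgd highest, in 154 nuclei from 1 pair of mice. Whether this belongs to untreated lesions at 7 dpi or to that library cannot be told apart.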

How the data were processed

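Single nuclei from photothrombotic lesions were sorted by DAPI and sequenced on the 10x platform, with 1 library per group from 1 male and 1 female mouse. The deposited files hold raw UMI counts per gene and barcode, which the authors made with Cell Ranger on mm10 (version 7.2.0 per the file headers, and 7.1.0 in the submitters' processing notes). From these counts, nuclei were chosen by the rule given above. The members and gene lists were chosen with earlier results of these data known.

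Each nucleus was assigned to the class of highest multinomial likelihood, with class profiles from nuclei picked by strict markers in the libraries with at least 20 of them. For precursors these were the 3 libraries at 7 dpi, and for committed precursors ADWA11 and Tgfbr2-cKO at 7 dpi. UMIs were summed over nuclei and divided by the summed non-mitochondrial total of those nuclei. With 1 library per group no test across samples was possible, so log2 ratios carry exact 95% intervals for counting error, binomial for shares. A gene was compared where 5 or more UMIs were expected in each library. A value of 0 UMIs was set to 3 UMIs, which makes that ratio a bound. Nuclei were called female by Xist without Y-linked UMIs and male by the reverse. Doublets came from a simulation per library in which the share called was set in advance by the number of barcodes, and called nuclei were kept.

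Up to 8 genes called higher and 8 called lower per comparison were chosen by ratio, with a 2-fold difference of the same sign in precursor-profile nuclei (0 UMIs set to 3, by which C3 and Lcn2 passed on at most 2 UMIs), the same sign in both sexes, at most 25% of UMIs in 1 nucleus, and a level at least that of other nuclei. A few of them are described, and a few genes of the rule and of the lists are not reported here. Lists covered rule genes, exclusion genes, lineage genes, growth factor receptors, commitment and myelin, cell cycle, proteoglycans and tenascins, TGFβ, BMP and Id, Notch, Wnt, interferon and antigen presentation, injury response, glutamate and potassium channels, adhesion and guidance, cholesterol and lipid, hypoxia and glycolysis, and immediate early genes. Scripts used Python 3.11.15, numpy 2.4.6, scipy 1.17.1, pandas 2.3.3 and scikit-learn 1.9.0 and were tested on simulated data.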

Additional observations from a re-analysis of the deposited data

Results flagged for a closer look

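In precursor-profile nuclei, 6 genes had called differences of ADWA11 against Ctrl that were opposite at 7 and 21 dpi. This difference between times was not tested. Top2a, a topoisomerase of dividing cells, had a log2 ratio of 1.05 at 7 dpi and -2.38 at 21 dpi. For Cenpf, a kinetochore protein, the ratios were 1.53 and -1.69, and for Kif11, a spindle motor, 1.18 and -1.42. Knl1, a kinetochore scaffold, had 1.27 and -1.91, and Ect2, which acts in cytokinesis, 1.61 and -1.42. The 5 cycle genes had 0 UMIs in the 8 nuclei of ADWA11 at 21 dpi, so their values there are set by a floor of 3 UMIs.

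Epha4, an ephrin receptor, went the other way, with -1.06 at 7 dpi and 1.63 at 21 dpi. It stood at 84.2 CPM in Ctrl, 40.5 in ADWA11 and 59.6 in Tgfbr2-cKO on day 7, then 45.7, 142 and 42.6 on day 21, from 10 UMIs in ADWA11 at 21 dpi, and outside the rule its ratio at 21 dpi was -0.27.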

How the results depend on the processing

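The results of all rule-defined nuclei depended on which nuclei were taken, and their shares on the denominator as well. Values below by sex, filter, scaling or count limit are for rule-defined nuclei unless precursor profiles are named. The stricter rule asked for 4 rule genes with Pdgfra and 0 exclusion genes. The glial classes below are all rule-defined nuclei and those assigned by markers to committed precursors, oligodendrocytes or astrocytes. They thus include the rule-defined nuclei with neuron or fibroblast profiles. Precursor profiles without the rule, and precursor-profile nuclei over other denominators, were alternatives chosen after seeing the data. Each ratio is against Ctrl at the same time unless another is named, and the cause of each change was not tested. For all rule-defined nuclei the log2 ratio of the share was 1.05 in Tgfbr2-cKO at 7 dpi, 0.71 in Tgfbr2-cKO at 21 dpi, 0.087 in ADWA11 at 7 dpi, -1.41 in ADWA11 at 21 dpi and -0.61 in Ctrl at 21 against 7 dpi. For precursor-profile nuclei the log2 ratio of the share was 0.35 in Tgfbr2-cKO at 7 dpi, 2.49 in Tgfbr2-cKO at 21 dpi, 0.41 in ADWA11 at 7 dpi and -3.56 in Ctrl at 21 against 7 dpi. Under the stricter rule the log2 ratio of the share was 1.41 in Tgfbr2-cKO at 7 dpi, 2.37 in Tgfbr2-cKO at 21 dpi, 0.57 in ADWA11 at 7 dpi, -0.88 in ADWA11 at 21 dpi and -2.12 in Ctrl at 21 against 7 dpi. For male rule-defined nuclei the log2 ratio of the share was 0.77 in Tgfbr2-cKO at 7 dpi, 1.06 in Tgfbr2-cKO at 21 dpi, 0.33 in ADWA11 at 7 dpi, -1.93 in ADWA11 at 21 dpi and -0.91 in Ctrl at 21 against 7 dpi. For precursor profiles without the marker rule the log2 ratio of the share was -0.49 in Tgfbr2-cKO at 7 dpi, 0.89 in Tgfbr2-cKO at 21 dpi, 0.49 in ADWA11 at 7 dpi, -2.14 in ADWA11 at 21 dpi and -2.32 in Ctrl at 21 against 7 dpi. For rule-defined nuclei over nuclei not ruled as neurons the log2 ratio of the share was 2.31 in Tgfbr2-cKO at 7 dpi and 0.93 in Tgfbr2-cKO at 21 dpi. For precursor-profile nuclei over nuclei not ruled as neurons the log2 ratio of the share was 1.62 in Tgfbr2-cKO at 7 dpi, 2.71 in Tgfbr2-cKO at 21 dpi, 0.39 in ADWA11 at 7 dpi and -3.56 in Ctrl at 21 against 7 dpi. For rule-defined nuclei over the glial classes the log2 ratio of the share was -0.27 in Tgfbr2-cKO at 7 dpi, -0.63 in Tgfbr2-cKO at 21 dpi, -0.26 in ADWA11 at 7 dpi, 0.25 in ADWA11 at 21 dpi and -0.81 in Ctrl at 21 against 7 dpi. For precursor-profile nuclei over the glial classes the log2 ratio of the share was -0.97 in Tgfbr2-cKO at 7 dpi, 1.16 in Tgfbr2-cKO at 21 dpi, 0.27 in ADWA11 at 21 dpi and -3.75 in Ctrl at 21 against 7 dpi. With class profiles from at least 5 picked nuclei per library, also chosen after seeing the data, the ratio for precursor-profile nuclei was 0.43 in Tgfbr2-cKO at 7 dpi, 2.34 in Tgfbr2-cKO at 21 dpi, 0.46 in ADWA11 at 7 dpi and -3.29 in Ctrl at 21 against 7 dpi, and without the marker rule -0.40, 0.89, 0.58 and -2.25, with -2.10 in ADWA11 at 21 dpi. For female rule-defined nuclei the log2 ratio of the share was -0.69 in ADWA11 at 21 dpi. Against the ratios of all rule-defined nuclei, 7 of these shares turned in direction, namely -0.49 and -0.40 for precursor profiles without the marker rule, -0.27 over the glial classes, -0.97 for precursor-profile nuclei over the glial classes, -0.63 over the glial classes, 0.25 over the glial classes and 0.27 for precursor-profile nuclei over the glial classes.

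Fewer genes pass the count filter in smaller sets, so the counts here and in the next paragraph are not shares of genes compared. In ADWA11 at 21 dpi 157 of 2733 genes (5.74%) were called lower in precursor-profile nuclei, against 781 of 13815 (5.65%) in rule-defined nuclei. In Tgfbr2-cKO at 7 dpi these shares were 5.2% and 24.5%. For precursor-profile nuclei the genes called higher numbered 525 in Tgfbr2-cKO at 7 dpi, 281 in Tgfbr2-cKO at 21 dpi, 451 in ADWA11 at 7 dpi, 114 in ADWA11 at 21 dpi and 193 in Ctrl at 21 against 7 dpi. Under the stricter rule the genes called higher numbered 806 in Tgfbr2-cKO at 7 dpi, 134 in Tgfbr2-cKO at 21 dpi, 474 in ADWA11 at 7 dpi, 82 in ADWA11 at 21 dpi and 117 in Ctrl at 21 against 7 dpi. For precursor profiles without the marker rule the genes called higher numbered 625 in Tgfbr2-cKO at 7 dpi, 610 in Tgfbr2-cKO at 21 dpi, 161 in ADWA11 at 21 dpi and 741 in Ctrl at 21 against 7 dpi. With an expected count of at least 20 UMIs the genes called higher numbered 490 in ADWA11 at 7 dpi, 135 in ADWA11 at 21 dpi and 1497 in Ctrl at 21 against 7 dpi. For male nuclei the genes called higher numbered 1250 in Ctrl at 21 against 7 dpi. For precursor-profile nuclei the genes called lower numbered 564 in Tgfbr2-cKO at 7 dpi, 246 in Tgfbr2-cKO at 21 dpi, 157 in ADWA11 at 21 dpi and 355 in Ctrl at 21 against 7 dpi. Under the stricter rule the genes called lower numbered 675 in Tgfbr2-cKO at 7 dpi, 105 in Tgfbr2-cKO at 21 dpi, 338 in ADWA11 at 7 dpi, 100 in ADWA11 at 21 dpi and 214 in Ctrl at 21 against 7 dpi. For precursor profiles without the marker rule the genes called lower numbered 766 in Tgfbr2-cKO at 7 dpi, 640 in Tgfbr2-cKO at 21 dpi, 460 in ADWA11 at 21 dpi and 602 in Ctrl at 21 against 7 dpi. With TMM the genes called lower numbered 2563 in Tgfbr2-cKO at 7 dpi. With CPM averaged over nuclei the genes called lower numbered 1262 in Tgfbr2-cKO at 21 dpi. With an expected count of at least 20 UMIs the genes called lower numbered 387 in ADWA11 at 7 dpi and 443 in ADWA11 at 21 dpi. With the study's percentile filter the genes called lower numbered 424 in ADWA11 at 21 dpi. For male nuclei the genes called lower numbered 287 in ADWA11 at 21 dpi.

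Under the stricter rule the listed genes called higher numbered 22 in Tgfbr2-cKO at 7 dpi, 7 in Tgfbr2-cKO at 21 dpi and 10 in Ctrl at 21 against 7 dpi. Under the stricter rule the listed genes called lower numbered 40 in Tgfbr2-cKO at 7 dpi, 9 in Tgfbr2-cKO at 21 dpi, 25 in ADWA11 at 7 dpi, 8 in ADWA11 at 21 dpi and 20 in Ctrl at 21 against 7 dpi. For precursor-profile nuclei the listed genes called higher numbered 10 in Tgfbr2-cKO at 21 dpi, 21 in ADWA11 at 7 dpi, 4 in ADWA11 at 21 dpi and 14 in Ctrl at 21 against 7 dpi. For precursor-profile nuclei the listed genes called lower numbered 30 in Tgfbr2-cKO at 7 dpi, 7 in Tgfbr2-cKO at 21 dpi, 39 in ADWA11 at 7 dpi, 9 in ADWA11 at 21 dpi and 21 in Ctrl at 21 against 7 dpi. For precursor profiles without the marker rule the listed genes called higher numbered 20 in ADWA11 at 7 dpi, 8 in ADWA11 at 21 dpi and 26 in Ctrl at 21 against 7 dpi. For precursor profiles without the marker rule the listed genes called lower numbered 38 in Tgfbr2-cKO at 7 dpi, 31 in Tgfbr2-cKO at 21 dpi, 32 in ADWA11 at 7 dpi and 27 in Ctrl at 21 against 7 dpi. With CPM averaged over nuclei the listed genes called higher numbered 8 in ADWA11 at 21 dpi. With CPM averaged over nuclei the listed genes called lower numbered 33 in Tgfbr2-cKO at 21 dpi. For male nuclei the listed genes called lower numbered 12 in ADWA11 at 21 dpi.

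For all rule-defined nuclei the share with cycle genes was 24.3%, 31.9% and 8.59% at 7 dpi in Ctrl, ADWA11 and Tgfbr2-cKO, and 8.88%, 5.58% and 8.70% at 21 dpi. For precursor-profile nuclei the share with cycle genes was 32.3% in Ctrl at 7 dpi, 46.6% in ADWA11 at 7 dpi, 29.0% in Tgfbr2-cKO at 7 dpi, 31.6% in Ctrl at 21 dpi, 25% in ADWA11 at 21 dpi and 12.3% in Tgfbr2-cKO at 21 dpi. Under the stricter rule the share with cycle genes was 16.7% in Ctrl at 7 dpi, 55.3% in ADWA11 at 7 dpi, 24.2% in Tgfbr2-cKO at 7 dpi, 0% in Ctrl at 21 dpi, 25% in ADWA11 at 21 dpi and 15.8% in Tgfbr2-cKO at 21 dpi. For female rule-defined nuclei the share with cycle genes was 20% in Ctrl at 7 dpi and 12.8% in Tgfbr2-cKO at 21 dpi. For male rule-defined nuclei the share with cycle genes was 16.7% in Ctrl at 7 dpi and 6.09% in Tgfbr2-cKO at 21 dpi. For precursor profiles without the marker rule the share with cycle genes was 30.6% in Ctrl at 7 dpi, 41.4% in ADWA11 at 7 dpi, 30.7% in Tgfbr2-cKO at 7 dpi, 34.0% in Ctrl at 21 dpi, 19.2% in ADWA11 at 21 dpi and 27.7% in Tgfbr2-cKO at 21 dpi. With at least 3 cycle genes required, the share of all rule-defined nuclei was 12.5% in Ctrl at 7 dpi, 20.6% in ADWA11 at 7 dpi, 4.54% in Tgfbr2-cKO at 7 dpi, 3.02% in Ctrl at 21 dpi, 1.29% in ADWA11 at 21 dpi and 3.16% in Tgfbr2-cKO at 21 dpi.

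For genes named by rule, the sign of the computed log2 ratio changed in the cases below. No turn in direction is shown by them: where 1 library held 0 UMIs the value is a bound, given as at least or at most, that does not exclude the first sign, and the counting intervals of the others held 0. The ratio in Tgfbr2-cKO at 7 dpi under the stricter rule was at least -0.25 for Diras2 and -0.38 for Asic4. In Tgfbr2-cKO at 21 dpi it was at least -1.05 for Dlgap3 and at least -2.28 for Asic1, and was -1.28 for Sgsm1 and 0.045 for Lcn2. In ADWA11 at 7 dpi it was at least -0.11 for Mmp3, -0.85 for Arhgef39, -1.43 for Gpr17, -1.43 for Bcas1os2, -2.43 for Gtse1 and -0.85 for Angptl1. In ADWA11 at 21 dpi it was at most 2.08 for Sez6l and 1.08 for Cntnap5b. In Ctrl at 21 against 7 dpi it was at most 3.77 for E2f8, 2.77 for Cenph and 2.77 for Tmem132c, and was 0.60 for Eln, 0.18 for Col18a1 and 2.18 for Zfp57. Taking precursor profiles without the marker rule, it was 0.32 for Ptx3 in Tgfbr2-cKO at 21 dpi, 0.52 for Syt1, 0.32 for Kcnj6 and 0.78 for Gabrb2 in ADWA11 at 21 dpi, and in Ctrl at 21 against 7 dpi 0.25 for Cenph and at least -0.035 for Aass. Among ratios of genes named by rule 311 other values moved by more than their interval and 360 did not, and for the medians of lists these counts were 269 and 607. The remaining alternatives left 21 shares, 37 counts of genes higher, 36 of genes lower, 73 of listed genes and 20 cycling shares within the limits set. No paired analysis was possible because the labels give no replicate numbers and each group was 1 library. Low numbers of nuclei limited the comparisons at 21 dpi, with 20, 8 and 59 precursor-profile nuclei.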
